A study of Mus musculus with 4 samples.

Results

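The genes described here are 9 enzymes and cofactors that write, copy or remove cytosine methylation in DNA: Dnmt1, Uhrf1, Hells, Dnmt3a, Dnmt3b, Dnmt3l, Tet1, Tet2 and Tet3. They were chosen by symbol, and all 9 were found among the 31017 gene symbols of the data set. Their levels were measured in the germ cells of mouse testis, in the other testis cells, and over 5 stages of germ cell development. Single-cell RNA sequencing was done on 4 samples, with 1 library per group. All mice were of the strain given as Acr-Gfp tg mouse (C57BL/6), so the in vivo groups carried the same transgene as the cultured ones. The 2-day culture and the 7-day culture came from testes taken at 7 days postpartum (dpp) and cut into fragments. These sat on agarose gel in α-MEM with AlbuMAX below a ceiling chip of PDMS, a silicone, for 2 or 7 days. The other groups were testes taken at 9 dpp and at 14 dpp. The labels name the tissue as testis, while their text on library preparation names female gonads. They do not say how many animals gave each library.

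The libraries held 5149 to 7710 cell barcodes and 34491701 to 60829941 unique molecular identifiers (UMIs, each counting 1 captured RNA molecule). After filtering, 23038 cells were left. A cell was called a germ cell when Ddx4 and Dazl, RNA-binding proteins specific to germ cells, together had at least 2 UMIs. This gave 12356 germ cells, namely 2824 and 2573 in the 2-day and 7-day cultures and 2741 and 4218 in the testes of 9 dpp and 14 dpp. Between 35 and 86 barcodes were shared by any pair of libraries, at most 1.35% of the smaller library. Markers of Sertoli cells, the somatic nurse cells of the tubule, summed to 1403 and 1447 CPM in germ cells of the 2-day and 7-day cultures and to 2553 and 3430 CPM in those of 9 dpp and 14 dpp, with none of the 8 markers at 0. CPM expresses a gene's UMIs relative to all UMIs of the cells summed. In the other cells the same markers summed to 6606 to 10808 CPM. Of the germ cells, 7.26%, 5.71%, 21.2% and 21.8% (cultures first, then the younger and the older testes) also scored as a somatic class. Below, 4 values in a row are given in that order, cultures first, unless other names stand with them.

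DNA methylation in mammals is kept through cell division by Dnmt1, which copies the mark onto the new strand. Uhrf1 recognises half-methylated DNA and brings Dnmt1 to it, and Hells is a chromatin remodeller needed for normal methylation. Dnmt3a and Dnmt3b methylate new sites, and Dnmt3l, which has no catalytic activity of its own, stimulates them. Tet1, Tet2 and Tet3 oxidise the methyl group as a step towards its removal. In the male germ line most new methylation is laid down before birth, and after birth spermatogonia divide and enter meiosis with the pattern in place.

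Promoter sequence was read for what the members share beyond their levels. RefSeq promoter windows, from 250 bases before to 50 bases after a transcription start on GRCm38.p6, were found for all 9 genes, 16 windows in all. They were searched on both strands for 4 words of the type bound by E2F, the factor family of S phase genes: TTTCCCGC, TTTGGCGC, TTTCGCGC and TTTGCCGC. The words were chosen after the windows had been read. They occurred in 3 of the 16 windows, 1 each at Dnmt1, Uhrf1 and Hells, and in no window of the other 6 genes. Over all 32817 windows of this length 2.26% held a word, and over all 27025 genes 2.6% did. The words do not overlap each other in these windows. The windows lie at chr9:20952574-20952873 on the minus strand for Dnmt1, which has 2 further windows without a word, at chr17:56304063-56304362 on the plus strand for Uhrf1, which has 1 further window without a word, and at chr19:38930740-38931039 on the plus strand for Hells. They are printed 5′ to 3′ on the gene's strand because they are the member windows that hold a word, and they belong to the 3 maintenance genes, with the words in capitals.
Dnmt1: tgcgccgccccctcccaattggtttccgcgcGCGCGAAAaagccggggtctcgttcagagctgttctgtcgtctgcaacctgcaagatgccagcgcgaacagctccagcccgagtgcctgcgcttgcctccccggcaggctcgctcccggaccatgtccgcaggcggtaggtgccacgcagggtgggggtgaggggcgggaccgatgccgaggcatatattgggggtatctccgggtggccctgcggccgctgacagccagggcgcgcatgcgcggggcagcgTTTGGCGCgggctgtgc
Uhrf1: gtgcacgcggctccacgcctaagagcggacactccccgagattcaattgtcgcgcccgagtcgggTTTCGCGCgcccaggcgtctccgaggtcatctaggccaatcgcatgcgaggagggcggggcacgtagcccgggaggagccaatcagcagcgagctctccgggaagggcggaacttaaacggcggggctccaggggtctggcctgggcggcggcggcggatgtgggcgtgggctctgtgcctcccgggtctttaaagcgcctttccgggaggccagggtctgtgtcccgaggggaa
Hells: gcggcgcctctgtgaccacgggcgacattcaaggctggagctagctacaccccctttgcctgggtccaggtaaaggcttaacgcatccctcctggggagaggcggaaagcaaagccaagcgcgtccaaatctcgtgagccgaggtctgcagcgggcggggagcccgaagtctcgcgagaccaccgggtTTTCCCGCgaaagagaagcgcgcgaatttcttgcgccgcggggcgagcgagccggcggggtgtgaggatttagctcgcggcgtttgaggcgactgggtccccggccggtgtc
Counted from the transcription start, the words begin at −219 and 33 in Dnmt1, at −185 in Uhrf1 and at −62 in Hells. A match is a description of the letters, and binding was not measured.

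Germ cells carried more RNA of all 3 maintenance genes than the other cells in each library. Dnmt1 was at 88.4, 91.7, 89.6 and 86.0 CPM in germ cells and at 15.3, 19.3, 21.8 and 16.2 CPM in other cells. The germ cell levels of Dnmt1 differed little between libraries and did not overlap the levels of the other cells. Across the 4 within-library differences Dnmt1 was higher in germ cells by a log2 fold change of 2.13 ± 0.12 (SE, n = 4 libraries, edgeR quasi-likelihood test, adjusted p = 8.55e-06). Uhrf1 was at 82.9, 70.4, 75.7 and 59.2 CPM in germ cells against 9.96, 7.12, 11.8 and 7.25 CPM. Its log2 fold change was 2.84 ± 0.13 (SE, n = 4, edgeR adjusted p = 5.58e-06). Hells had the largest germ cell excess of the 9 genes, with 630, 494, 522 and 540 CPM in germ cells against 32.4, 27.5, 29.4 and 22.0 CPM. Its log2 fold change was 4.13 ± 0.14 (SE, n = 4, edgeR adjusted p = 5.01e-06). Genes of DNA replication moved the same way: all 12 genes of an S phase list were higher in germ cells, with a median log2 fold change of 2.01, and summed to 1127 to 1556 CPM in germ cells and 253 to 449 CPM in other cells. The part of cell division in the difference of the maintenance genes was not tested.

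**Figure D1:**
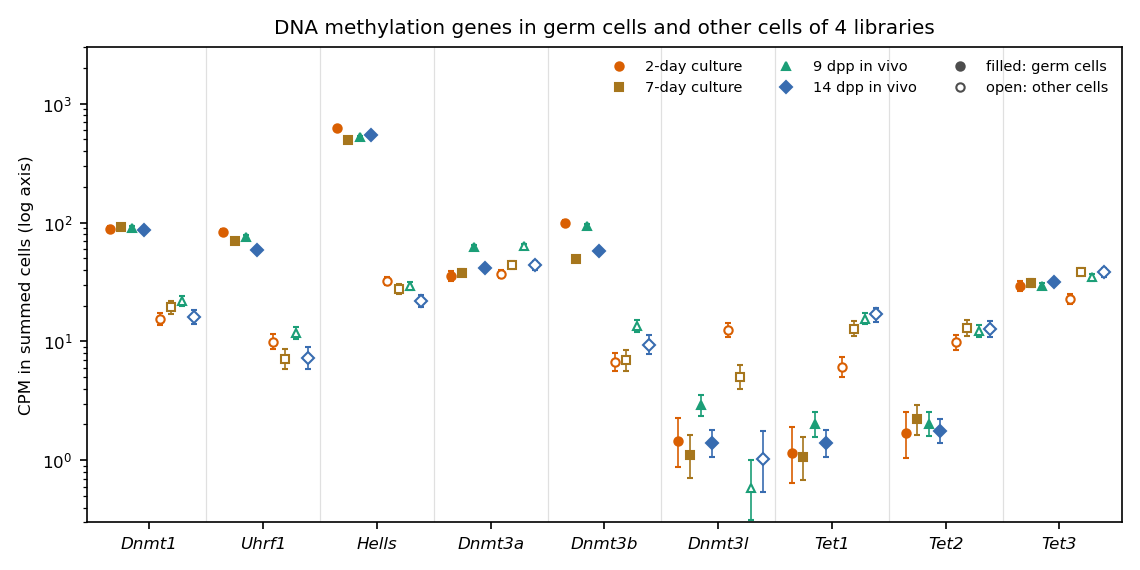
CPM of the 9 genes on a log axis in germ cells (filled) and other cells (open) of each library, with 95% exact Poisson intervals that cover counting error only. Dnmt1, Uhrf1, Hells and Dnmt3b lie higher in germ cells in all 4 libraries, and Tet1 and Tet2 lie lower in all 4. Dnmt3l is lower in germ cells of the cultures, higher in those of 9 dpp, and within counting error of the other cells at 14 dpp.

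The de novo enzymes parted. Dnmt3b was at 99.8, 49.3, 94.1 and 57.7 CPM in germ cells and at 6.74, 6.98, 13.5 and 9.38 CPM in other cells, without overlap. It was higher in germ cells by a log2 fold change of 2.86 ± 0.21 (SE, n = 4, edgeR adjusted p = 2.36e-05). Dnmt3a was at 35.4, 38.0, 62.4 and 41.7 CPM in germ cells and at 36.8, 43.6, 63.0 and 43.7 CPM in other cells, so that the ranges overlapped almost fully. Its log2 fold change of −0.26 ± 0.11 (SE, n = 4) did not pass the test (edgeR adjusted p = 0.0622). Dnmt3a and Dnmt3b each overlap an antisense gene of the annotation (Dnmt3aos, Dnmt3bos). Whether counting used the strand is not given in the sources used here, so reads of the pairs may not be separate.

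Of the oxidising enzymes, Tet1 and Tet2 were low in germ cells and Tet3 was present in both. Tet1 was at 1.15, 1.06, 2.00 and 1.40 CPM in germ cells against 6.11, 12.8, 15.5 and 16.9 CPM in other cells. Tet2 was at 1.68, 2.21, 2.03 and 1.77 CPM against 9.80, 13.0, 12.2 and 12.7 CPM. Neither gene overlapped between the classes, and the germ cell values rested on 15 to 71 UMIs for Tet1 and 22 to 77 for Tet2. The log2 fold changes were −3.33 ± 0.26 for Tet1 (SE, n = 4, edgeR adjusted p = 3.07e-05) and −2.80 ± 0.19 for Tet2 (SE, n = 4, edgeR adjusted p = 1.71e-05). Without the germ cells that also scored as somatic, the same differences were −4.09 and −4.08. Tet3 was at 29.2, 31.1, 29.4 and 31.3 CPM in germ cells against 22.8, 38.3, 34.6 and 38.3 CPM, higher in germ cells in the 2-day culture only among the 4 libraries. Its log2 fold change of −0.29 ± 0.13 (SE, n = 4) did not pass (edgeR adjusted p = 0.0843), while without the somatic-scoring germ cells it was −0.44 (edgeR adjusted p = 0.0317). It also passed without the 2-day culture, at −0.41 (edgeR adjusted p = 0.0317).

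In all, 4 of the 9 genes were higher in germ cells, 2 were lower and 3 were not called. Among all 15073 genes tested 37.4% were higher and 37.7% lower, so calls in this comparison were common. With germ cells held to at least 5 UMIs of the gate genes, 4 of the 9 were lower, the additional ones being Dnmt3a and Tet3.

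Dnmt3l, like Tet3, differed in direction between libraries. In germ cells it was at 1.45, 1.10, 2.90 and 1.40 CPM, from 19, 25, 103 and 61 UMIs. In other cells it was at 12.5, 5.05, 0.588 and 1.02 CPM, from 237, 73, 13 and 13 UMIs. The other cells of both cultures thus lay above their germ cells, and those of 9 dpp and 14 dpp below or level with theirs. Over the 4 libraries the log2 fold change of −0.93 ± 0.96 (SE, n = 4) did not pass (edgeR adjusted p = 0.40). Without the 9 dpp library it was −1.89 and passed (edgeR adjusted p = 0.0468), and without the 2-day culture it was 0.03.

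By number of UMIs, Dnmt3l outside the germ line came mainly from cells whose markers scored as stromal or myoid, the fibroblast-like and contractile cells around the tubules. There it was at 19.7, 6.84, 1.16 and 1.60 CPM, from 208, 49, 11 and 8 UMIs in 2446, 1523, 1530 and 1130 cells. In Leydig cells, the androgen-producing cells, it was at 23.5, 4.10, 0 and 0.722 CPM, from 11, 2, 0 and 1 UMIs. Sertoli cells had 2 to 4 UMIs per library, at 0.19 to 0.782 CPM. Among the few macrophages, 10 cells of the 2-day culture held 5 UMIs and 17 cells of the 7-day culture held 20, while 27 and 46 cells of the in vivo libraries held 0. The levels in these few cells, 57.3 CPM and 36.0 CPM, lay above those of the stromal or myoid cells of the same cultures. In stromal or myoid cells the log2 ratio of CPM plus 1 of the 2-day culture to 9 dpp was 3.26 (95% counting interval 2.72 to 3.75), where 13% of all genes in these cells differed 2-fold. That of the 7-day culture to 14 dpp was 1.59 (0.82 to 2.31), where 9.7% did, and that of the longer to the shorter culture was −1.40 (−1.82 to −1.0), where 6.68% did. With 1 library per group these ratios have no replicate check, and their intervals cover counting error only.

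The share of cells with a Dnmt3l UMI gave the same order. After each cell was thinned to 2000 UMIs, 80 of 2175 stromal or myoid cells of the 2-day culture had one, 3.68% (exact Clopper-Pearson interval 2.93% to 4.56%). The 7-day culture had a share of 1.12% of 1428 cells, and the in vivo shares were 0.067% of 1492 cells (9 dpp) and 0.194% of 1033 cells (14 dpp). Without thinning they were 7.82%, 2.94%, 0.67% and 0.774%. In Sertoli cells of the 2-day culture, taken as the background of free RNA, 0 of 712 thinned cells had one, with an upper bound of 0.517%. Among the cells with at least 2000 UMIs, median depths were 3948 UMIs for the stromal or myoid and 6672 for the Sertoli cells of that library. Over all other cells Dnmt3l differed by 3.09 (2.71 to 3.41) between the 2-day culture and 9 dpp and by 1.58 (1.05 to 2.06) between the 7-day culture and 14 dpp. Past 2-fold were 11.9% of all genes in the first and 10% in the second of these comparisons. Dnmt3l overlaps Aire on the other strand, so the 2 cannot be told apart if counting ignored the strand.

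**Figure D2:**
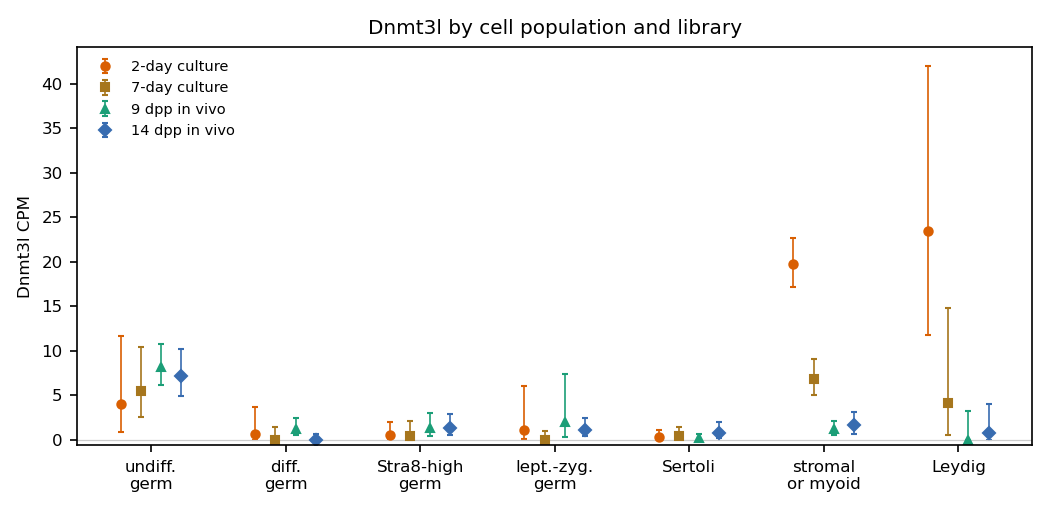
Dnmt3l CPM in 4 germ cell stages and 3 somatic classes of each library, with 95% exact Poisson intervals. Undifferentiated germ cells lie at 3.97 to 8.22 CPM in all 4 libraries, whereas stromal or myoid cells lie at 19.7 and 6.84 CPM in the cultures and below 2 CPM in vivo.

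Germ cells with at least 2000 UMIs were then placed in stages by marker UMIs that include none of the 9 genes. Undifferentiated spermatogonia hold the stem cells, differentiating spermatogonia express Kit, Stra8-high cells are about to enter meiosis, and leptotene-zygotene and pachytene cells are in meiotic prophase. The stages held 985, 1783, 2286, 1701 and 636 cells in that order, and 4413 germ cells reached no stage. The 9 dpp library had 9 pachytene cells, which were left out of the tests. The 22 pachytene cells of the 2-day culture had 1441 CPM of pachytene markers, against 5008 for the longer culture and 8569 for 14 dpp, and still 579 CPM of Stra8-high markers, against 40.4 and 50.4. Leptotene-zygotene cells of 14 dpp held 4165 CPM of Sertoli markers, against 277 to 564 in the other libraries, and 188 of these 765 cells also scored as somatic. Pachytene cells of 14 dpp held 1624 CPM of them, against 411 in the 7-day culture, and 83 of these 259 cells scored as somatic. Of the 9 genes, 7 passed the low-count filter of the stage tests. Tet1 and Tet2 did not, with at most 4.06 CPM in any stage sum.

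Dnmt1 was highest in differentiating cells in 3 libraries and lowest in pachytene cells. It was at 106, 94.1, 60.0 and 83.8 CPM in undifferentiated cells and at 103, 156, 121 and 154 CPM in differentiating cells. In Stra8-high cells it was at 90.5, 150, 94.6 and 103 CPM, and in leptotene-zygotene cells at 40.2, 44.2, 73.1 and 40.5 CPM. The well-filled pachytene sums, those of the 7-day culture and 14 dpp, were at 10.2 and 12.6 CPM, below every earlier stage of every library. Dnmt1 rose from undifferentiated to differentiating cells by a log2 fold change of 0.69 ± 0.20 (SE, higher in 3 of 4 libraries, edgeR adjusted p = 0.0109). The 2-day culture was the exception, and its undifferentiated sum held 748 CPM of Stra8-high markers, against 223 to 302 CPM in the other libraries, and 730 CPM of undifferentiated markers, against 1054 to 1110 CPM. The part of this in the step was not tested. It fell by 1.08 on the log2 scale into leptotene-zygotene (SE 0.21, lower in 4 of 4, edgeR adjusted p = 0.0012) and by a further 1.85 into pachytene (SE 0.30, lower in 3 of 3, edgeR adjusted p = 9.43e-05). With 2 UMIs required of every stage list the pachytene call was lost (−0.96, edgeR adjusted p = 0.0684).

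Its partners followed only part of this course. Uhrf1 was at 96.7, 66.2, 64.7 and 61.0 CPM in undifferentiated cells and at 100, 95.4, 99.2 and 89.6 CPM in differentiating cells, where the libraries lay close together. It rose by 0.47 ± 0.14 (SE, higher in 4 of 4, edgeR adjusted p = 0.0158). From differentiating to Stra8-high cells it fell by 0.48 on the log2 scale (SE 0.14, lower in 4 of 4, edgeR adjusted p = 0.0474). This call lies at the threshold and was lost under most alternatives, with log2 fold changes of −0.29 to −0.49 where it was lost. Uhrf1 was at 49.1 to 83.2 CPM in leptotene-zygotene cells and at 52.0 and 33.2 CPM in pachytene cells of the 7-day culture and 14 dpp, and neither step passed the test (edgeR adjusted p = 0.801 and 0.478). At 14 dpp the pachytene cells were below the leptotene-zygotene cells by more than counting error, at −0.55 (95% counting interval −0.83 to −0.27).

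Hells, which also acts at meiotic recombination sites, was still abundant in early prophase. It was at 576, 414, 402 and 474 CPM in undifferentiated cells, at 698, 769, 706 and 756 CPM in Stra8-high cells and at 960, 603, 966 and 724 CPM in leptotene-zygotene cells. Only the pachytene step was called for Hells: it fell by 1.36 on the log2 scale (SE 0.30, lower in 2 of 3, edgeR adjusted p = 0.00133). Pachytene cells of the longer culture had 135 CPM and those of 14 dpp 207 CPM, while the 22 cells of the 2-day culture had 989 CPM. Without the 2-day culture the log2 fold change was −1.86 (edgeR adjusted p = 2.75e-06). The call was lost without 14 dpp (−1.19, edgeR adjusted p = 0.0502) and with 2 UMIs required of every stage list (−0.72, edgeR adjusted p = 0.0583). The S phase list summed to 1659 to 1868 CPM in Stra8-high cells and 558 and 559 CPM in pachytene cells of the 7-day culture and 14 dpp. Its part in these steps was not tested.

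**Figure D3:**
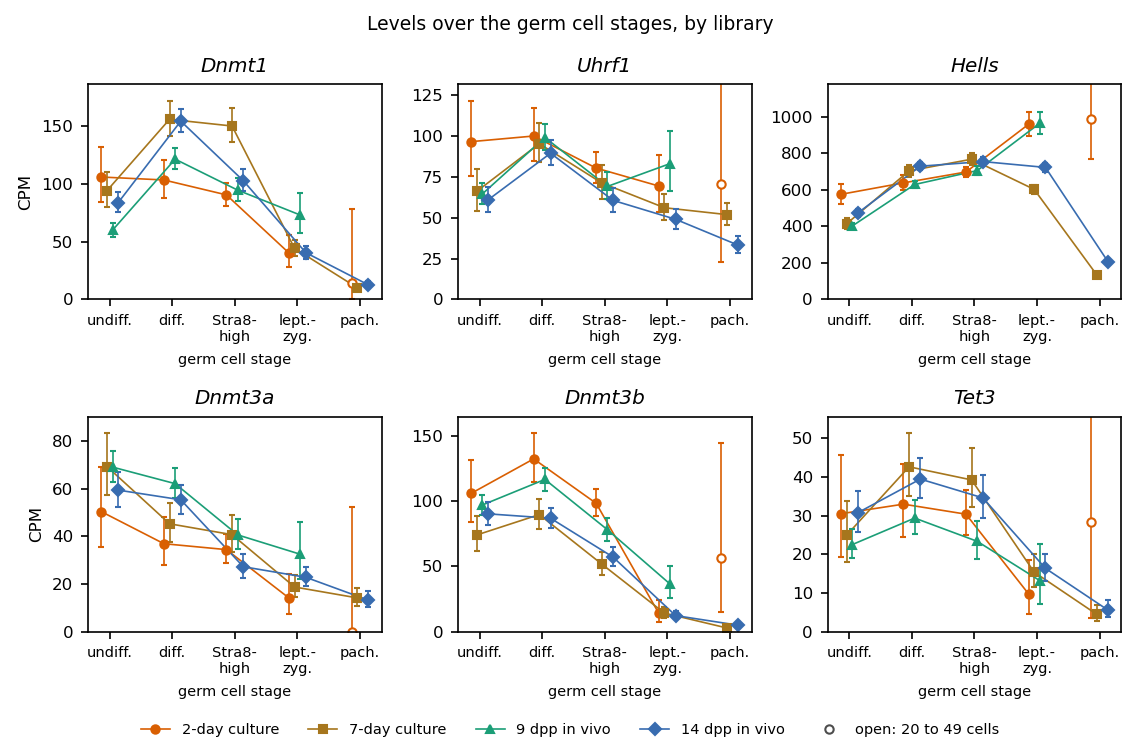
CPM of 6 genes over the germ cell stages, 1 line per library, with 95% exact Poisson intervals. The open symbol is the 22 pachytene cells of the 2-day culture, whose interval runs past some axes, and the 9 dpp library has no pachytene point. Dnmt3b drops to 12.3 to 36.5 CPM in leptotene-zygotene cells while Hells is at 603 to 966 CPM there.

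Dnmt3b was low from early prophase on. It was at 106, 74.1, 97.1 and 90.3 CPM in undifferentiated cells, at 132, 89.7, 117 and 86.9 CPM in differentiating cells and at 98.4, 51.8, 78.1 and 57.1 CPM in Stra8-high cells. In leptotene-zygotene cells it was at 14.1, 14.3, 36.5 and 12.3 CPM, below every earlier stage of every library. This was the largest called fall of that step among the 9 genes, 1.85 on the log2 scale (SE 0.24, lower in 4 of 4, edgeR adjusted p = 7.41e-05). Pachytene cells of the longer culture had 2.83 CPM and those of 14 dpp 4.96 CPM, while the 2-day culture had 4 UMIs. Dnmt3b fell by 1.40 on the log2 scale at this step (SE 0.37, lower in 2 of 3, edgeR adjusted p = 0.00581). With 2 UMIs required of every stage list the same step gave 0.31 and was not called (edgeR adjusted p = 0.711).

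Dnmt3a was lower at each step up to leptotene-zygotene in every library, but by uneven amounts. Undifferentiated cells had 50.3, 69.2, 69.0 and 59.4 CPM. Differentiating cells had 36.9, 45.2, 62.1 and 55.3 CPM, and Stra8-high cells 34.4, 40.7, 40.6 and 27.2 CPM. The log2 ratios of CPM plus 1 were −0.098, −0.15, −0.60 and −0.995 into Stra8-high cells. Into leptotene-zygotene they were −1.23, −1.08, −0.31 and −0.25. The larger fall thus came at leptotene-zygotene in the cultures and at Stra8-high in vivo, a difference that was not tested. Leptotene-zygotene cells had 14.1, 18.7, 32.5 and 22.8 CPM, and the step into them was called, with a fall of 0.63 on the log2 scale (SE 0.20, lower in 4 of 4, edgeR adjusted p = 0.0229). None of the other 3 steps of Dnmt3a passed (edgeR adjusted p = 0.207, 0.104 and 0.22).

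Dnmt3l was found in the earliest germ cells. Undifferentiated cells had 3, 9, 53 and 31 UMIs, or 3.97, 5.47, 8.22 and 7.16 CPM, while differentiating cells had 1, 0, 7 and 0 UMIs. Each library was thus lower in differentiating cells, and the fitted log2 fold change of −3.83 ± 0.64 (SE, edgeR adjusted p = 0.000235) rests on these few UMIs. It was −5.48 without 9 dpp and −3.20 without 14 dpp. Dnmt3l reached the low-count filter through its undifferentiated sums, where it is high, so the adjusted p depends on that group. Without thinning, 1.56%, 7.08%, 9.86% and 8.18% of undifferentiated cells had a Dnmt3l UMI, against 0.281%, 0.454%, 0.291% and 0.787% of Sertoli cells. At 2000 UMIs per cell the shares in undifferentiated cells were 1.56%, 1.77%, 1.41% and 1.57%. With 3 UMIs required of every stage list Dnmt3l did not pass the low-count filter, and the step was not tested.

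Tet3 was at 30.5, 24.9, 22.5 and 30.7 CPM in undifferentiated cells and at 32.9, 42.6, 29.3 and 39.4 CPM in differentiating cells, a step that did not pass (log2 fold change 0.43 ± 0.18, edgeR adjusted p = 0.0734). It fell by 1.08 on the log2 scale into leptotene-zygotene (SE 0.20, lower in 4 of 4, edgeR adjusted p = 0.000821), to 9.77, 15.4, 13.2 and 16.4 CPM. It fell by 1.23 into pachytene (SE 0.28, lower in 2 of 3, edgeR adjusted p = 0.00165), where cells of the longer culture had 4.49 CPM and those of 14 dpp 5.58 CPM. The pachytene call was lost without the 7-day culture (−1.01, edgeR adjusted p = 0.0599), without 14 dpp (−1.23, edgeR adjusted p = 0.0757) and with 2 UMIs required of every stage list (−0.58, edgeR adjusted p = 0.293).

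Read together by step, 2 of the 7 tested members rose and 1 fell from undifferentiated to differentiating cells, where 18.1% of all 12597 genes rose and 19.6% fell. The 1 that fell was Dnmt3l, which reached the low-count filter through its undifferentiated sums. From differentiating to Stra8-high cells 1 fell, and 5.43% of all genes rose and 1.1% fell. Into leptotene-zygotene 4 fell, with 14.1% of all genes rising and 14.8% falling, and into pachytene 4 fell, with 19.2% rising and 22.6% falling. Without the somatic-scoring germ cells 4 members rose at the first step, with Hells (0.57, edgeR adjusted p = 0.0438) and Tet3 (0.48, edgeR adjusted p = 0.0498) added. Without them 2 fell into Stra8-high cells, with Dnmt3b added (−0.64, edgeR adjusted p = 0.0394), and the pachytene log2 fold change of Tet3 was −1.83 (edgeR adjusted p = 0.000236). The rises of Dnmt1 and Uhrf1 were not called once the 7-day culture, 9 dpp or 14 dpp was left out, and without the 2-day culture 4 members rose, with Hells and Tet3 added. The Stra8-high fall of Uhrf1 was not called without the 7-day culture, 9 dpp or 14 dpp, at log2 fold changes of −0.49, −0.45 and −0.44, and without the 2-day culture 3 members fell. In pachytene 2 falls were called without the 7-day culture and 1 without 14 dpp. Dnmt3a lost its leptotene-zygotene call without the 2-day culture (edgeR adjusted p = 0.0819) or the 7-day culture (edgeR adjusted p = 0.185).

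The culture groups were set beside the in vivo groups whose age matched the age at explant plus the time in culture, as a question about germ cells kept outside the body. Each comparison has 1 library a side, so ratios are given without a test. Over all germ cells none of the 9 genes differed 2-fold between the 2-day culture and 9 dpp, where 5.79% of all genes did, or between the 7-day culture and 14 dpp, where 5.28% did. Dnmt1 differed by −0.02 (−0.12 to 0.08) and 0.09 (0.01 to 0.17) on the log2 scale in these comparisons. Hells differed by 0.27 (0.23 to 0.31) and −0.13 (−0.16 to −0.10). Tet3 differed by −0.01 in both, with intervals of −0.18 to 0.15 and −0.14 to 0.12. Over all 15329 genes the medians of these ratios were −0.02 and 0.02.

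Dnmt3a was lower in germ cells of the 2-day culture than of 9 dpp, at −0.80 (−0.94 to −0.66). The ratio of Dnmt3l was −0.67 (−1.11 to −0.21) from 19 and 103 UMIs. It was −0.95 with 0.1 CPM added in place of 1, where that of Dnmt3a was −0.81, and −1.24 without the somatic-scoring germ cells. Dnmt3a was lower in the culture in differentiating cells, by −0.74 (−1.15 to −0.34), and in leptotene-zygotene cells, by −1.15 (−2.11 to −0.24), the latter from 13 and 32 UMIs in a comparison where 15.9% of all genes differed 2-fold. In undifferentiated cells the ratio was −0.45 (−0.95 to 0.02) and in Stra8-high cells −0.23 (−0.57 to 0.10). The other cells of the same libraries differed by −0.76 (−0.89 to −0.63), and stromal or myoid cells by −0.94 (−1.15 to −0.73). Lower Dnmt3a in the 2-day culture was therefore measured over all germ cells and over the other cells. Undifferentiated cells made up 5.25% of germ cells deep enough to stage in the culture and 15.7% at 9 dpp. Stra8-high cells made up 32.4% and 16.2%. Of all germ cells, 7.26% and 21.2% also scored as a somatic class. The part of these differences in the germ cell ratio of Dnmt3a was not tested. Between the 7-day culture and 14 dpp the germ cell ratio was −0.13 (−0.25 to −0.02).

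**Figure D4:**
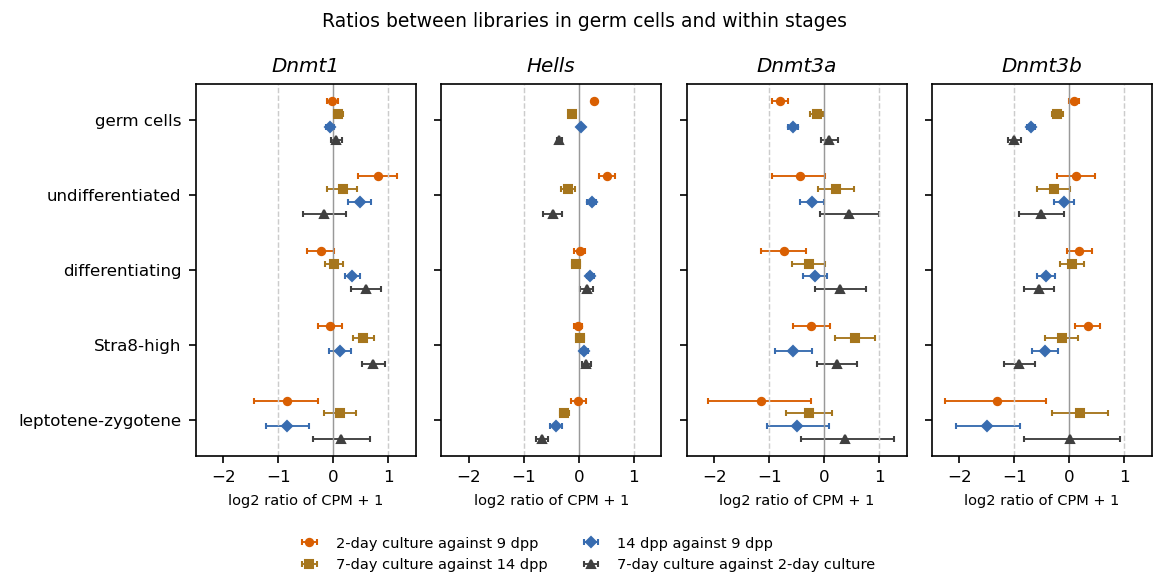
Log2 ratio of CPM plus 1 for 4 genes in 4 comparisons of libraries, over all germ cells and within stages, with 95% counting intervals and dashed lines at 2-fold. Dnmt3b is lower in the 7-day than in the 2-day culture in all germ cells (−1.0), and in undifferentiated, differentiating and Stra8-high cells taken alone (−0.51, −0.56 and −0.91).

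With time, Dnmt3b was lower in the older library of each kind. At 14 dpp it was below 9 dpp by −0.70 (−0.77 to −0.62) over all germ cells, and in the 7-day culture below the 2-day culture by −1.0 (−1.12 to −0.89). The second value was the only 2-fold difference of a member in these comparisons, in which 6.91% and 7.66% of all genes differed 2-fold. It lies at the threshold and was under 2-fold in 5 other settings, with −0.86 when each cell had equal weight. Germ cell samples of different age hold different stages: 13.9% of germ cells deep enough to stage were pachytene in the 7-day culture and 0.902% in the 2-day culture. Within stages the in vivo ratios were −0.10 (−0.29 to 0.08) in undifferentiated, −0.42 (−0.58 to −0.26) in differentiating and −0.44 (−0.68 to −0.21) in Stra8-high cells. In culture they were −0.51 (−0.92 to −0.09), −0.56 (−0.83 to −0.28) and −0.91 (−1.20 to −0.63). In leptotene-zygotene cells the 14 dpp library was below 9 dpp by −1.49 (−2.06 to −0.90), as 18.9% of all genes differed 2-fold there, and the cultures did not differ beyond counting error, at 0.01 (−0.82 to 0.92). The leptotene-zygotene cells of 9 dpp held 875 CPM of Stra8-high markers against 373 CPM at 14 dpp, and 2988 against 4326 CPM of their own stage's markers. Their S phase genes summed to 1597 against 848 CPM, and their Sertoli markers to 454 against 4165 CPM. The part of these differences in the ratio was not tested.

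Dnmt1 differed in direction between stages. Over all germ cells it differed by −0.06 (−0.13 to 0.01) between 14 dpp and 9 dpp and by 0.05 (−0.05 to 0.16) between the cultures. In undifferentiated cells the ratio was 0.48 (0.27 to 0.68) for the testes and −0.17 (−0.56 to 0.23) for the cultures. In leptotene-zygotene cells it was −0.84 (−1.22 to −0.44) for the testes and 0.13 (−0.37 to 0.67) for the cultures. The sums of the testes differed in stage, S phase and Sertoli markers as given for Dnmt3b. Between the cultures, too, the shorter one held more Stra8-high markers there, 942 against 428 CPM, and a higher S phase sum, 1406 against 755 CPM. In differentiating cells Dnmt1 was higher in the older library, by 0.34 (0.20 to 0.48) for the testes and by 0.59 (0.32 to 0.86) for the cultures. In Stra8-high cells the in vivo ratio was 0.12 (−0.08 to 0.32), and the cultures differed by 0.72 (0.51 to 0.93). The 7-day culture was also above 14 dpp in Stra8-high cells, by 0.54 (0.35 to 0.73). Near-level totals over germ cells thus covered unequal levels within stages.

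Outside germ cells Tet1 also differed between culture and in vivo. In stromal or myoid cells it was at 7.21 and 18.3 CPM in the 2-day and 7-day cultures and at 24.9 and 33.6 CPM at 9 and 14 dpp. The log2 ratios were −1.66 (−2.0 to −1.31) and −0.84 (−1.17 to −0.52) for the age-matched comparisons, with the same 13% and 9.7% of genes past 2-fold. Tet3 in the same cells was at 11.2, 23.0, 19.4 and 26.4 CPM, lowest in the 2-day culture.

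Other genes of the methylation pathway were followed in 6 lists with 44 genes in the files, of which 41 passed the filter in germ against other cells. Of these, 21 were higher in germ cells and 8 lower, where 37.4% of all genes were higher and 37.7% lower. The list of methylation directed by piRNAs, small RNAs that guide silencing of transposons, had all 6 tested members higher, with a median log2 fold change of 4.27 against 0.00126 for all genes. Its members Morc1 (5.46 ± 0.40, edgeR adjusted p = 2.44e-05) and Mael (5.20 ± 0.21, edgeR adjusted p = 5.01e-06) were the highest, followed by Dppa3, a factor that holds Uhrf1 off chromatin (4.99 ± 0.61, edgeR adjusted p = 0.000236). Of 6 maintenance partners 4 were higher, of 6 de novo partners 4, of 7 methyl donor genes 3 with 2 lower, and of 9 methyl-CpG readers and silencing genes 3 with 3 lower. Of 7 oxidation and repair genes 1 was higher and 3 were lower. The lowest called genes were Apobec1 (−2.79 ± 0.32, edgeR adjusted p = 0.000187), the imprint-protecting factor Zfp57 (−2.12 ± 0.22, edgeR adjusted p = 0.000118) and Ogt, a partner of TET enzymes (−1.73 ± 0.17, edgeR adjusted p = 9.36e-05). Germ cells held 10, 28, 27 and 47 UMIs of Apobec1 and 51, 42, 111 and 79 of Zfp57.

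Over the stages, 10 of 41 pathway genes rose and 10 fell from undifferentiated to differentiating cells, where 18.1% of all genes rose and 19.6% fell. Spocd1 and Piwil4, both of the nuclear piRNA branch, fell by 3.02 and 2.85 on the log2 scale (edgeR adjusted p = 0.000199 and 0.000338), and Morc1 by 2.26 (edgeR adjusted p = 2.3e-06), at the same step as Dnmt3l. Ctcfl, a germline relative of the insulator protein CTCF, rose by 2.62 (edgeR adjusted p = 0.000394). Over all germ cells Ctcfl had 61, 126, 154 and 202 UMIs and Spocd1 6, 19, 133 and 81, so their stage values rest on few UMIs. Gadd45b and Tdg, the glycosylase that removes oxidised methylcytosine, rose by 1.11 and 0.96 (edgeR adjusted p = 0.000322 and 0.00467). Into Stra8-high cells 1 rose, the histone methyltransferase gene Setdb1 (0.83 ± 0.22, edgeR adjusted p = 0.0263), and 0 fell, against 5.43% and 1.1% of all genes. Into leptotene-zygotene 3 rose, Trdmt1 by 0.98, Mat2a by 0.76 and Zbtb24 by 0.75, and 10 fell, against 14.1% and 14.8% of all genes. The largest log2 fold changes among these were −3.04 for Dppa3 (edgeR adjusted p = 0.00348), −1.80 for Ahcy (edgeR adjusted p = 0.0226) and −1.55 for Morc1 (edgeR adjusted p = 0.000801). Over all germ cells Dppa3 had 61, 50, 902 and 676 UMIs and Ahcy 42, 44, 149 and 84. Into pachytene 9 rose and 17 fell, against 19.2% and 22.6% of all genes. The replication ligase Lig1 fell by 2.40 (edgeR adjusted p = 4.88e-05), Ctcfl fell by 3.15 (edgeR adjusted p = 0.00197), and the thymidylate synthase gene Tyms fell by 2.42 (edgeR adjusted p = 0.000604). The piRNA genes Tdrd9 and Piwil2 rose by 1.75 and 1.47 (edgeR adjusted p = 0.000304 and 0.000952), and Mbd3 by 1.24 (edgeR adjusted p = 0.000565).

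Between libraries, Dppa3 was lower in germ cells of both cultures than in vivo. Germ cells of the 2-day culture had 4.66 CPM and those of 9 dpp 25.4 CPM, with a log2 ratio of −2.22 (−2.55 to −1.91). Against 15.5 CPM at 14 dpp stood 2.21 CPM in the longer culture, a ratio of −2.37 (−2.67 to −2.06). Spocd1 and Piwil4 were lower in the 2-day culture than at 9 dpp by −1.70 (−2.08 to −1.21) and −1.29 (−1.62 to −0.96). Spocd1 stood at 0.458 and 3.75 CPM there, from 6 and 133 UMIs, so the added 1 CPM holds its ratio nearer 0. With Ehmt2 (−1.06, −1.20 to −0.92), a histone methyltransferase gene, 4 of 42 pathway genes were past 2-fold in this comparison, all lower, where 5.79% of all genes were past 2-fold. Undifferentiated cells made up 5.25% of germ cells deep enough to stage in that culture and 15.7% at 9 dpp. Morc1 and Piwil4 were lower at 14 dpp than at 9 dpp, by −1.05 (−1.15 to −0.94) and −1.03 (−1.22 to −0.83). Undifferentiated cells, from which both fell at the next stage, were 7.65% of germ cells at 14 dpp, and the part of this in the ratios was not tested. Kdm1b, a histone demethylase gene, was lower in the longer than in the shorter culture, by −1.15 (−1.38 to −0.93).

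Across the 19 library and stage sums, members and other genes were compared by Pearson's r of log2(CPM + 1), as a description, since the sums share libraries and depth. Among the members Dnmt3b and Tet3 were most alike (r = 0.90), then Dnmt1 and Tet3 (r = 0.81), and Hells and Dnmt3a were unrelated (r = −0.08). Of 8265 genes searched, Dnmt1 was most like Tmem14c (r = 0.963), Slc25a3 and Ptprf, and Uhrf1 most like Coq7 (r = 0.92), Mob1b and Mrps2. Hells was most like Esyt2 (r = 0.955), Fam90a1b and Mmgt1, and Dnmt3a most like Riox1 (r = 0.981), Mrps5 and Tpm3. Dnmt3b was most like Mettl9 (r = 0.977), Cdt1 and Cnih2, and Tet3 most like Rtkn2 (r = 0.954), Pabpc4 and Akap17b.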

How the data were processed

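Single-cell RNA was measured in 4 mouse testis libraries, 1 per group. The deposited matrices hold raw counts of UMIs per gene and barcode, made by the authors from Chromium 3′ v2 libraries with Cell Ranger 3.0.2 on mm10, per the submitters' processing notes. The counting of strand and the annotation release are not given in the sources used here. Gene positions came from GENCODE M21 by identifier.

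Barcodes needed 500 detected genes and no more than 20% mitochondrial UMIs, and Scrublet calls (scanpy 1.11.5, expected 6%) were removed. Germ cells had at least 2 UMIs of Ddx4 plus Dazl. Those of 2000 UMIs or more were reduced at random to 2000 and staged by the marker list with the highest sum relative to its mean, at a minimum of 3 UMIs (2 for undifferentiated). Somatic classes (Sertoli, stromal or myoid, Leydig, endothelial, macrophage) took the best marker score, at 1.5 times the next, with at least 3 markers detected. No clustering was used. Free RNA was not subtracted.

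UMIs were summed per library and class or stage (at least 20 cells) and tested with edgeR 4.0.16 (R 4.3.3; quasi-likelihood test, TMM, library as a block, Benjamini-Hochberg over all genes, threshold 0.05). Each SE is the absolute log2 fold change divided by the square root of the F statistic of that test. It is not the standard error of the separate within-library differences. The 4 libraries are different conditions, and nothing says which animals they came from, so the spread includes condition and library. Between single libraries, log2 ratios of CPM plus 1 carry intervals combined from exact Poisson limits at 95%, for counting error only. On simulated counts for germ against other cells (14956 genes) the test recovered 66% of genes changed by 1 log2 unit and 100% of those changed by 2. It made 11 false calls. For Stra8-high against differentiating cells (12132 genes) it recovered 74.7% and 98%, with 12 false calls. The simulated libraries differed only in their totals, all genes had a common spread, and only well-counted genes were changed. Stra8-high and all later stages were changed together. These rates therefore do not describe low-count members such as Dnmt3l.

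The members, lists and rules were chosen with earlier results of these data known. Named pathway genes were, per test, the 3 highest and 3 lowest called, and per ratio the 3 highest and lowest past 2-fold with at least 50 UMIs. Genes of like pattern were the 3 with the highest r at a mean of at least 10 CPM, for members with at least 200 UMIs. Alternatives covered DESeq2 1.42.0, scaling, filters, gates, stage rules, added constants and leaving out each library. Leaving out somatic-scoring germ cells, and the gate of 5 UMIs for stages, were added after the data were seen.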

Additional observations from a re-analysis of the deposited data

Results flagged for a closer look

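Dnmt3l differed in sign between culture and in vivo when germ cells were set against other cells within a library. The log2 ratio of CPM plus 1 was −2.46 (95% counting interval −2.88 to −2.01) in the 2-day culture and −1.52 (−1.93 to −1.09) in the 7-day culture. It was 1.30 (0.90 to 1.64) at 9 dpp and 0.25 (−0.25 to 0.69) at 14 dpp, where the interval includes 0. The difference between the cultures and the in vivo libraries was not tested, since each group has 1 library.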

How the results depend on the processing

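No paired analysis was possible because each group has 1 library and the replicate numbers are only names, so no samples pair between groups; classes and stages were compared with the library as a block. Of the tested values of single members under the alternatives, 504 kept their direction and side of the threshold, 32 passed it newly, 32 lost it and 1 reversed: Dnmt3b from leptotene-zygotene to pachytene, 0.31 with 2 UMIs for every stage list. Of the untested ratios 2768 moved by less than their counting interval, 285 moved by more and 2 changed sign, both in Leydig cells (Dnmt3a in the 2-day culture against 9 dpp, 0.058 with equal weight per cell; Hells between the cultures, 0 after thinning). The 4 genes higher in germ cells remained 4 under every alternative run, and the count of lower genes went from 2 to 4 with a gate of 5 UMIs.

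Counts over the stages moved more. From undifferentiated to differentiating cells, 2 members rose. This became 1 without the library block or with 2 UMIs for every list, 4 without somatic-scoring cells, with 3 UMIs for every list, with the latest list or with the gate of 5 UMIs, and 5 on unthinned UMIs. Without the low count filter it was 3, with Hells added (edgeR adjusted p = 0.000416). Leaving out 1 library gave 0 to 4. The 1 fall became 0 with 3 UMIs for every list, where Dnmt3l was not tested. Into Stra8-high cells the 1 fall became 2 with DESeq2, without somatic-scoring cells or with the gate of 5 UMIs. It became 0 without TMM, without the library block, with 2 or 3 UMIs for every list, on unthinned UMIs or with the latest list, and 0 to 3 with 1 library left out. Without the low count filter it stayed 1, but Uhrf1 was lost (edgeR adjusted p = 0.0993) and Dnmt3b called (edgeR adjusted p = 0.0196). With 2 UMIs for every list the 4 falls into leptotene-zygotene became 2 and the 4 into pachytene 0, and leaving out 1 library gave 1 to 5 for pachytene. The fifth, without the 2-day culture, was Tet2 (−1.74, edgeR adjusted p = 0.0412), which passed the low count filter there and was also called with doublet calls kept and with the gate of 5 UMIs. The pachytene falls of Dnmt3a and Dnmt3l were called without TMM and with the latest list, that of Dnmt3l also without the low count filter and with doublet calls kept, and that of Dnmt3b was lost on unthinned UMIs (edgeR adjusted p = 0.111). The leptotene-zygotene fall of Dnmt3a was lost without the library block (edgeR adjusted p = 0.0808), and that of Uhrf1 was called on unthinned UMIs (edgeR adjusted p = 0.0134). Among the 2-fold counts in germ cells, 0 became 1 for the 2-day culture against 9 dpp without somatic-scoring cells and for 14 dpp against 9 dpp with 0.1 CPM added. The 1 between the cultures became 0 with 10 CPM added, TMM factors, equal weight per cell, a gate of 1 UMI or doublet calls kept. Depth limits Tet1, Tet2 and Dnmt3l in germ cells, whose stage sums hold at most 53 UMIs.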
